A study of Mus musculus with 18 samples.

Results

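The inhibitory checkpoint receptors of tumor-infiltrating T cells were described here as 10 genes chosen by symbol, Pdcd1, Ctla4, Lag3, Havcr2, Tigit, Cd160, Btla, Cd200r1, Cd96 and Lair1, out of 37236 genes in the deposited table. All 10 were found, and all 10 passed the filter on low values (a mean of 10 normalized counts or more), as did 11992 genes in all. RNA was measured with a 3′ mRNA library kit (QuantSeq) in CD45+ CD3+ lymphocytes sorted, after selection with CD4 and CD8 beads and pooling, from subcutaneous B16-OVA tumors, a mouse melanoma line that carries ovalbumin, in C57BL/6 mice. Nr2f6+/+ mice with the control antibody IgG2b gave 3 samples and Nr2f6-/- mice with IgG2b gave 3. Nr2f6+/+ mice with anti-PD-L1 (clone 10F.9G2) gave 6, and Nr2f6-/- mice with anti-PD-L1 gave 6. Every mouse received 500000 tumor cells and 0.5 mg of antibody per injection from d3 on, and tumors were taken at d14. The Nr2f6-/- mice lack the gene in all cells, so an effect of genotype need not arise in the T cells measured.

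Inhibitory receptors are surface proteins that dampen T cell receptor and costimulatory signals once they meet a ligand on another cell. Many carry tyrosine motifs that recruit phosphatases such as SHP-1 and SHP-2, while CTLA-4 mainly competes with CD28 for CD80 and CD86. Persistent antigen, as in tumors, keeps several of these receptors on the same T cell, and PD-1 with its ligand PD-L1 is the pair that anti-PD-L1 interrupts. Several of these genes are also expressed outside the CD8+ T cells of a tumor: Ctla4 and Tigit in regulatory T cells, and Havcr2, Cd200r1 and Lair1 in myeloid cells.

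Between 12473391 and 18609482 reads per sample were counted on genes. A normalized count is the number of reads scaled by a size factor of its sample, and 3 reads corresponded to between 2.46 and 3.64 normalized counts, a limit that covers counting error only. No Nr2f6 read was found in the Nr2f6-/- samples (0 reads in all 9), while the Nr2f6+/+ samples held 20.2 to 101 normalized counts with IgG2b and 26.1 to 201 with anti-PD-L1. The library numbers in the labels form a first set, 28 to 39, and a second set, 43 to 48. The second set holds 3 samples of each anti-PD-L1 group and none with IgG2b, so differences between anti-PD-L1 and IgG2b are also given for the first set alone where named. T cell genes (Cd3e, Cd3d, Cd3g, Cd247, Lck, Zap70) summed to between 30746 and 52941.5 normalized counts per sample. Markers of macrophages and monocytes were present too, as given below.

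The 10 genes differed widely in level. A 3′ kit counts about 1 fragment per transcript, so values of different genes were set side by side without a length correction. Pdcd1, which encodes PD-1, was by far the most abundant, with a mean of 8888 normalized counts ± 2054 (SD, n = 18). Every sample held more Pdcd1 than any sample held of another member, since its lowest sample (5338) lay above the highest Havcr2 sample (3365). Havcr2, which encodes TIM-3, averaged 2286, Ctla4 1867, Cd96 1469 and Cd160 822. The means of Cd200r1 (362), Lair1 (353) and Btla (303) lay close together, and their ranges over samples overlapped almost fully. Tigit (94.0) and Lag3 (92.5) were lowest, and 1 Lag3 sample rested on only 6 reads. Pdcd1 made up between 45.2% and 63.5% of the reads of the 10 genes in a sample, and the 10 genes together made up between 0.0718% and 0.124% of all reads on genes.

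The genes also differed in their spread. After the group means were removed, the SD of the log2 level was 0.28 for Pdcd1 and 0.30 for Havcr2, with a median of 0.88 over all genes tested. Of those genes 5.17% had a smaller SD than Pdcd1. Pdcd1 and Havcr2 also lay above 98.0% and 89.8% of the genes tested in mean level. Cd160 (0.37), Cd96 (0.46) and Ctla4 (0.62) also varied less than the median gene. The members named so far were those with the highest means, and spread was not compared among genes of like level. Lair1 (1.49), Lag3 (1.43) and Btla (1.41) varied most, and their highest sample exceeded their lowest by 48.7-fold, 51.1-fold and 43.2-fold.

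**Figure D1:**
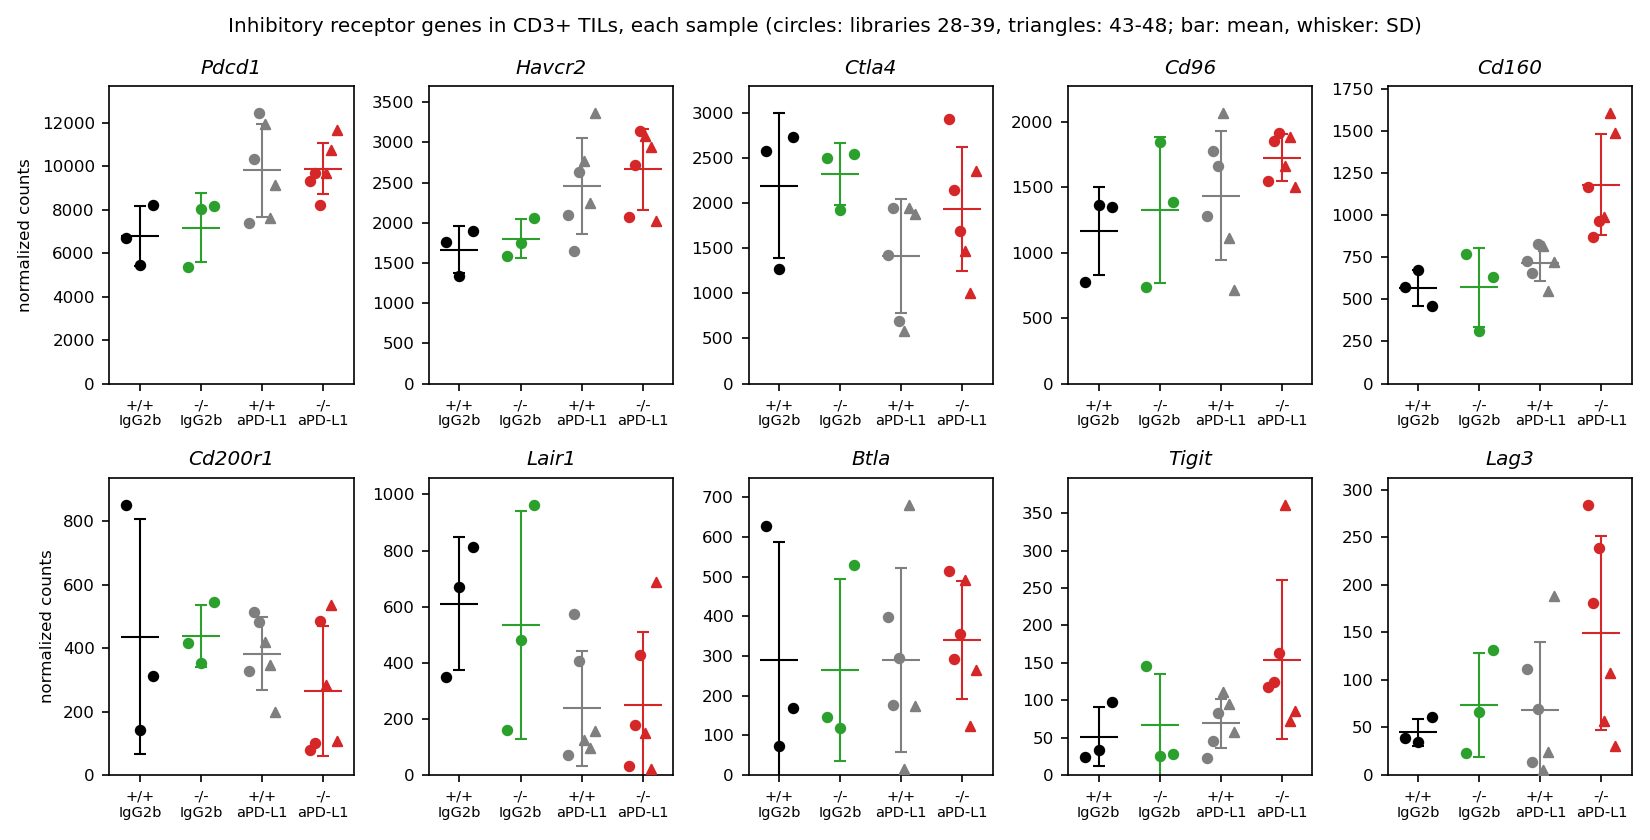
Normalized counts (y axes, linear and starting at 0) of each inhibitory receptor gene in the 18 samples by genotype and antibody (x axes), ordered by mean level. Circles are samples of the first library set and triangles those of the second, the horizontal bar is the group mean and the whisker the SD, which is not drawn below 0. The 6 Nr2f6-/- anti-PD-L1 samples of Cd160 (869 to 1606) sit above all 12 others.

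PD-1 and TIM-3, the receptors with the steadiest levels, had positive differences with anti-PD-L1 in both genotypes, which did not pass the test across all genes. Pdcd1 measured 6709, 5445 and 8215 normalized counts in the Nr2f6+/+ IgG2b samples and 5338, 8034 and 8145 in the Nr2f6-/- IgG2b samples. Under anti-PD-L1 its range was from 7391 to 12437 (median 9723) in Nr2f6+/+ and from 8218 to 11653 (median 9694) in Nr2f6-/- mice. In Nr2f6-/- mice every anti-PD-L1 sample lay above every IgG2b sample, by as little as 8218 against 8145, whereas in Nr2f6+/+ mice the ranges overlapped.

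On the log2(normalized count + 1) scale, the difference of Pdcd1 between anti-PD-L1 and IgG2b was 0.52 (SE 0.20, limma adjusted p = 0.523) in Nr2f6+/+ and 0.48 (SE 0.20, adjusted p = 0.394) in Nr2f6-/- mice. Averaged over both genotypes, a contrast chosen after the data were seen, it was 0.50, a 1.41-fold difference with a 95% interval from 1.16 to 1.72 (limma adjusted p = 0.0672), where 1.13% of all genes were called. Within the first library set alone the averaged difference was 0.46 (adjusted p = 0.253). In the same contrast DESeq2 called 2 of the 10 genes on recovered reads, Pdcd1 (adjusted p = 0.0168) and Havcr2 (adjusted p = 0.0292), and 2.84% of all genes. The genotypes lay close together in Pdcd1, since the log2 difference between Nr2f6-/- and Nr2f6+/+ samples was 0.03 with anti-PD-L1, with a 95% interval from -0.30 to 0.36, and 0.07 with IgG2b, from -0.39 to 0.54. A level in Nr2f6-/- samples more than 1.28-fold higher under anti-PD-L1, or 1.45-fold under IgG2b, lies outside these intervals.

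Havcr2 measured 1755, 1334 and 1902 normalized counts in Nr2f6+/+ and 1586, 1754 and 2063 in Nr2f6-/- IgG2b samples. With anti-PD-L1 the range was 1651 to 3365 (median 2438) in Nr2f6+/+ and 2026 to 3144 (median 2831) in Nr2f6-/- mice. The ranges overlapped within each genotype, and only the Nr2f6-/- anti-PD-L1 samples against the Nr2f6+/+ IgG2b samples did not. The log2 difference with anti-PD-L1 was 0.54 (SE 0.23, limma adjusted p = 0.589) in Nr2f6+/+ and 0.55 (SE 0.23, adjusted p = 0.417) in Nr2f6-/- mice, and the difference between these effects was 0.01 with a 95% interval from -0.67 to 0.68. Both were positive in the first library set alone, at 0.35 and 0.54.

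CTLA-4, which binds CD80 and CD86 in place of CD28, had negative differences with anti-PD-L1, which did not pass the test. Ctla4 measured 2582, 1269.5 and 2730.5 normalized counts in Nr2f6+/+ and 2498, 1921 and 2539 in Nr2f6-/- IgG2b samples. Anti-PD-L1 samples held from 584 to 1946 (median 1654) in Nr2f6+/+ and from 1008 to 2928 (median 1920.1) in Nr2f6-/- mice. All 4 ranges overlapped. The log2 difference between anti-PD-L1 and IgG2b was -0.71 (SE 0.36, limma adjusted p = 0.711) in Nr2f6+/+ and -0.33 (SE 0.36, adjusted p = 0.832) in Nr2f6-/- mice. In the first library set alone these were -0.74 and -0.0648, so the difference in Nr2f6-/- mice was then close to 0. Between genotypes with anti-PD-L1 it was 0.53 (SE 0.30, adjusted p = 0.592), with 0.82 in the first library set and 0.24 in the second.

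CD160 and BTLA share the ligand HVEM. Among the 10 genes, Cd160 was the one that separated Nr2f6-/- from Nr2f6+/+ samples under anti-PD-L1. It measured 572, 673 and 459 normalized counts in Nr2f6+/+ and 769.6, 314 and 629.7 in Nr2f6-/- IgG2b samples. In the anti-PD-L1 samples the range ran from 548 to 826 (median 725) in Nr2f6+/+ and from 869 to 1606 (median 1079) in Nr2f6-/- mice. The lowest Nr2f6-/- anti-PD-L1 sample (869) thus lay above the highest of the 12 other samples (826), an order noticed after the values were seen and shared by 7 of the 11992 genes tested (0.0584%).

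Under anti-PD-L1 the log2 difference of Cd160 between genotypes was 0.70 (SE 0.26), a 1.62-fold higher level with a 95% interval from 1.12 to 2.34, and the limma adjusted p was 0.356. It was 0.44 within the first library set and 0.95 within the second. Under IgG2b the difference was -0.07, with a 95% interval from -0.82 to 0.68. Anti-PD-L1 against IgG2b gave 1.11 (SE 0.32, adjusted p = 0.176) in Nr2f6-/- and 0.34 (SE 0.32, adjusted p = 0.879) in Nr2f6+/+ mice, and the difference between these effects was 0.77 (SE 0.45, adjusted p = 0.974). In the first library set alone the effects were 0.90 and 0.38. Nr2f6-/- anti-PD-L1 against Nr2f6+/+ IgG2b gave 1.03 (adjusted p = 0.161). On recovered reads DESeq2 called Cd160 higher in Nr2f6-/- mice with anti-PD-L1 against IgG2b (log2 1.05, adjusted p = 0.0432) and against Nr2f6+/+ IgG2b (log2 1.06, adjusted p = 0.0495), while edgeR did not (adjusted p = 0.245 and 0.201).

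Btla gave no such order. Its levels were 628, 71.9 and 168 normalized counts in Nr2f6+/+ IgG2b and 146, 119 and 529 in Nr2f6-/- IgG2b samples. With anti-PD-L1 they ranged from 15.8 to 682 (median 235) in Nr2f6+/+ and from 123 to 515 (median 324) in Nr2f6-/- mice. A spread of this size left the log2 difference between genotypes under anti-PD-L1 at 0.73 with a 95% interval from -0.68 to 2.14. It was 0.0383 without Nr2f6+/+ anti-PD-L1 replicate 4, 0.24 by edgeR and 0.23 by DESeq2, and 0.46 and 1.01 within the first and second library sets. HVEM itself (Tnfrsf14) was at 0 in 6 of the 18 samples and reached 167 normalized counts at most.

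TIGIT and CD96 bind poliovirus receptor and related nectins, for which they compete with the activating receptor CD226. Cd96 measured 778, 1368 and 1349 normalized counts in Nr2f6+/+ and 737, 1848 and 1384 in Nr2f6-/- IgG2b samples. With anti-PD-L1 it ranged from 716 to 2067 (median 1472) in Nr2f6+/+ and from 1501 to 1912 (median 1756) in Nr2f6-/- mice. The Nr2f6-/- anti-PD-L1 samples were the tightest group for Cd96 (SD of the log2 level 0.15, against 0.56 in the Nr2f6+/+ anti-PD-L1 samples) and lay above all 3 Nr2f6+/+ IgG2b samples, with a log2 difference of 0.61 (SE 0.31, limma adjusted p = 0.578).

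Tigit was scarce. It measured 23.7, 33.4 and 97.0 normalized counts in Nr2f6+/+ and 146, 25.4 and 28.1 in Nr2f6-/- IgG2b samples. Under anti-PD-L1 its range was from 23.0 to 110.4 (median 70.0) in Nr2f6+/+ and from 72.9 to 362 (median 121) in Nr2f6-/- mice. The groups overlapped in every comparison, and the log2 difference between genotypes under anti-PD-L1 was 1.10 with a 95% interval from -0.53 to 2.73 (1.56 in the first library set and 0.64 in the second).

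LAG-3 binds MHC class II. Lag3 measured 38.7, 34.4 and 61.4 normalized counts in Nr2f6+/+ and 22.8, 66.0 and 131 in Nr2f6-/- IgG2b samples. Anti-PD-L1 samples held from 5.57 to 188 (median 46.8) in Nr2f6+/+ and from 30.1 to 285 (median 144) in Nr2f6-/- mice. The 3 first-set Nr2f6-/- anti-PD-L1 samples (285, 181 and 239) lay above all first-set samples of the other groups, whereas the 3 of the second set (56.9, 107 and 30.1) did not. The log2 difference between genotypes under anti-PD-L1 was 1.57 (SE 0.94, limma adjusted p = 0.626), with 2.26 in the first library set and 0.87 in the second.

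CD200R1, the receptor for CD200, and LAIR-1, the collagen receptor, are shared with myeloid cells. Cd200r1 measured 853, 143 and 313 normalized counts in Nr2f6+/+ and 416, 352 and 545 in Nr2f6-/- IgG2b samples. In the anti-PD-L1 samples the range ran from 199 to 513 (median 384) in Nr2f6+/+ and from 78.1 to 535 (median 196) in Nr2f6-/- mice. The groups overlapped throughout, and the log2 difference with anti-PD-L1 was 0.12 in Nr2f6+/+ and -1.10 (SE 0.62, limma adjusted p = 0.593) in Nr2f6-/- mice, or 0.36 and -1.45 in the first library set alone. The difference between these effects was -1.22 (SE 0.87, adjusted p = 0.978).

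Lair1 had the most negative difference of the 10 genes in the 3 comparisons of anti-PD-L1 with IgG2b. It measured 351, 669 and 812 normalized counts in Nr2f6+/+ and 159.8, 481 and 964 in Nr2f6-/- IgG2b samples. With anti-PD-L1 it ranged from 70.0 to 573 (median 141) in Nr2f6+/+ and from 19.8 to 687 (median 163) in Nr2f6-/- mice. The groups overlapped in each comparison. The log2 difference was -1.69 (SE 0.88, limma adjusted p = 0.723) in Nr2f6+/+ mice, -1.66 (SE 0.88, adjusted p = 0.554) in Nr2f6-/- mice and -2.11 (SE 0.88, adjusted p = 0.402) between Nr2f6-/- anti-PD-L1 and Nr2f6+/+ IgG2b samples. Restricted to the first library set these were -1.18, -1.61 and -2.06. The value in Nr2f6-/- mice was -1.06 without IgG2b replicate 3 of that genotype and ran from -2.35 to -1.06 over the samples left out, and DESeq2 gave -1.29 for the last of the 3 comparisons.

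**Figure D2:**
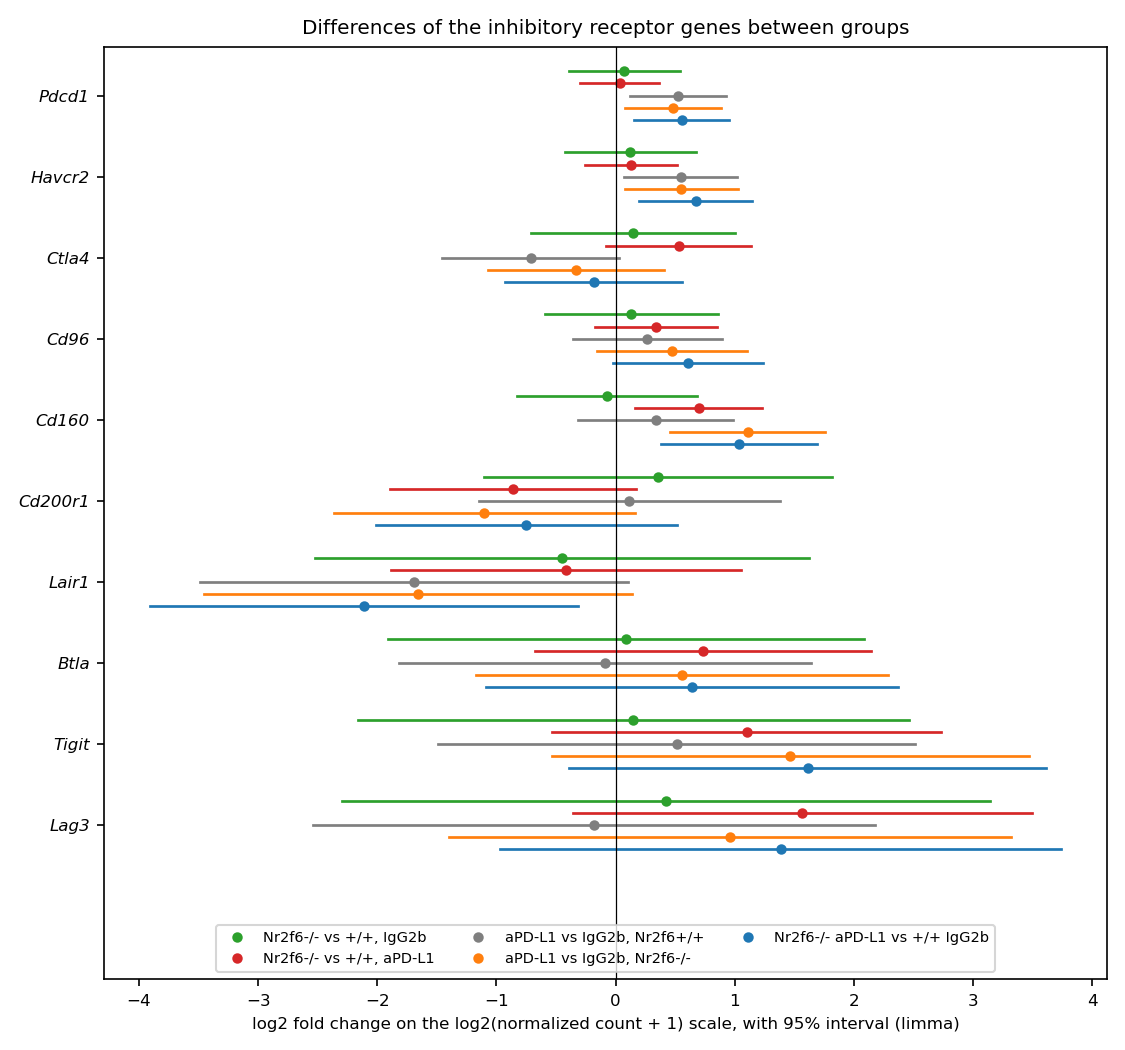
Log2 fold change (x axis, on the log2(normalized count + 1) scale) of each inhibitory receptor gene (y axis) in 5 comparisons, as points with 95% limma intervals. Pdcd1 has the narrowest intervals and Lag3 the widest, and no difference passed an adjusted p of 0.05.

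Counted over the 10 genes, limma called 0 in each of the 6 comparisons at an adjusted p of 0.05. The share of all genes called was 0.175% between genotypes with anti-PD-L1 and 0% with IgG2b, 0.242% and 0.325% for anti-PD-L1 in Nr2f6+/+ and Nr2f6-/- mice, 0.617% for Nr2f6-/- anti-PD-L1 against Nr2f6+/+ IgG2b and 0% for the difference of the treatment effects. These comparisons share groups of samples. edgeR also called 0 of the 10 in each, with 0.183%, 0%, 0.158%, 0.3%, 0.342% and 0% of all genes called in the same order. DESeq2 called Cd160 in the comparisons given above, where it called 1.96% and 1.51% of all genes, and 0 of the 10 in the other 4, where it called 1.57%, 0.75%, 0.801% and 0.648%.

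At an unadjusted limma p under 0.05, 1 of the 10 differed between genotypes with anti-PD-L1 (Cd160, background 9.73%) and 0 with IgG2b (5.35%). Anti-PD-L1 gave 2 in Nr2f6+/+ mice (Pdcd1 and Havcr2, 7.24%) and 3 in Nr2f6-/- mice (Cd160, Pdcd1 and Havcr2, 9.7%). The samples that differ in both factors gave 4, with Cd160, Havcr2 and Pdcd1 higher and Lair1 lower (9.04% of all genes in either direction, 3.12% higher and 5.92% lower), and the difference of the treatment effects gave 0 (4.97%). The counts of 0 and 1 are close to the background share, and those of 2 to 4 are above it, which was not tested. Pdcd1 and Havcr2 are in each of the latter counts, and those comparisons share samples.

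Groups did not overlap for 1 of the 10 between genotypes with anti-PD-L1 (Cd160, higher, with 0.592% of all genes in either direction and 0.392% higher) and 0 with IgG2b (14.2%). Anti-PD-L1 separated 0 in Nr2f6+/+ mice (4.54%) and 2 in Nr2f6-/- mice (Cd160 and Pdcd1, both higher, 5.12% in either direction and 1.97% higher). Between Nr2f6-/- anti-PD-L1 and Nr2f6+/+ IgG2b samples 4 did not overlap, Cd160, Cd96, Havcr2 and Pdcd1, all higher (6.17% in either direction and 2.17% higher).

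Differences above 0 outnumbered those below 0 among the 10 genes in each comparison, and 0 passed limma's adjusted threshold. Under anti-PD-L1, 8 of 10 had a positive difference between genotypes, with a median of 0.43 against -0.0049 over all genes tested, 49.6% of which were above 0. With IgG2b 8 of 10 were positive, and the median was 0.13 against -0.06 (45.9% above 0). Anti-PD-L1 gave 6 of 10 and a median of 0.19 in Nr2f6+/+ mice (all genes -0.10, 42.6% above 0) and 7 of 10 and a median of 0.52 in Nr2f6-/- mice (all genes -0.04, 47.1% above 0). Nr2f6-/- anti-PD-L1 against Nr2f6+/+ IgG2b samples gave 7 of 10 and a median of 0.62 (all genes -0.12, 42.1% above 0). The difference of treatment effects was above 0 for 8 of 10, with a median of 0.29 (all genes 0.06, 53% above 0). The medians rest partly on genes with wide intervals, such as Lag3 and Tigit.

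Within groups, the 10 genes showed little shared variation. Over 45 pairs, the Pearson correlation of log2 levels across the 18 samples, with group means removed, ran from -0.53 to 0.62 with a median of -0.05, and 19 pairs were above 0. None passed an adjusted p of 0.05 in a permutation test within groups, and 2 passed without adjustment. These were Ctla4 with Btla (r = 0.62, rho = 0.45, permutation p = 0.0172 and 0.0762, adjusted p = 0.773 for r and 0.644 for rho, and r = 0.58 without the 2 farthest samples) and Ctla4 with Cd96 (r = -0.53, rho = -0.49, permutation p = 0.0381 and 0.0607, adjusted p = 0.856 for r and 0.644 for rho, and r = -0.39 without the 2 farthest samples).

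The samples mix CD4+ and CD8+ T cells, and Cd96 varied with the Cd8a to Cd4 ratio by rank. CD4+ and CD8+ cells were selected with beads and pooled before the sort, and the part of that step in the ratio was not tested. The log2 ratio of Cd8a to Cd4 ran from -0.32 to 3.08 over the samples. With group means removed, Cd96 was higher in samples with a higher ratio (r = 0.70, rho = 0.74, permutation p = 0.00817 and 0.00311, adjusted over 10 genes p = 0.0668 for r and 0.0311 for rho). The relation was r = 0.75 without the 2 farthest samples, 0.62 within the first library set and 0.75 within the second. The share of all genes that vary with the ratio in this way was not computed. Ctla4 had a negative correlation that did not pass adjustment (r = -0.64, rho = -0.49, permutation p = 0.0134 and 0.0676, adjusted p = 0.0668 and 0.169), with r = -0.51 without the 2 farthest samples, -0.49 in the first set and -0.94 in the second. That of Pdcd1 was positive and did not pass adjustment either (r = 0.61, rho = 0.64, permutation p = 0.0269 and 0.0174, adjusted p = 0.0867 and 0.087), with r = 0.43 without the 2 farthest samples, 0.72 in the first set and 0.66 in the second. Cd200r1 had r = 0.41 (rho = 0.45, permutation p = 0.0347 and 0.0526, adjusted p = 0.0867 and 0.169), with r = 0.46 without the 2 farthest samples, 0.23 in the first set and 0.77 in the second. For Cd160 r was -0.02 (rho = -0.04, permutation p = 0.949 and 0.879), which pools -0.39 in the first set and 0.67 in the second, and it was -0.30 without the 2 farthest samples. In bulk RNA, fewer cells that express a receptor and less of its RNA per cell cannot be told apart.

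**Figure D3:**
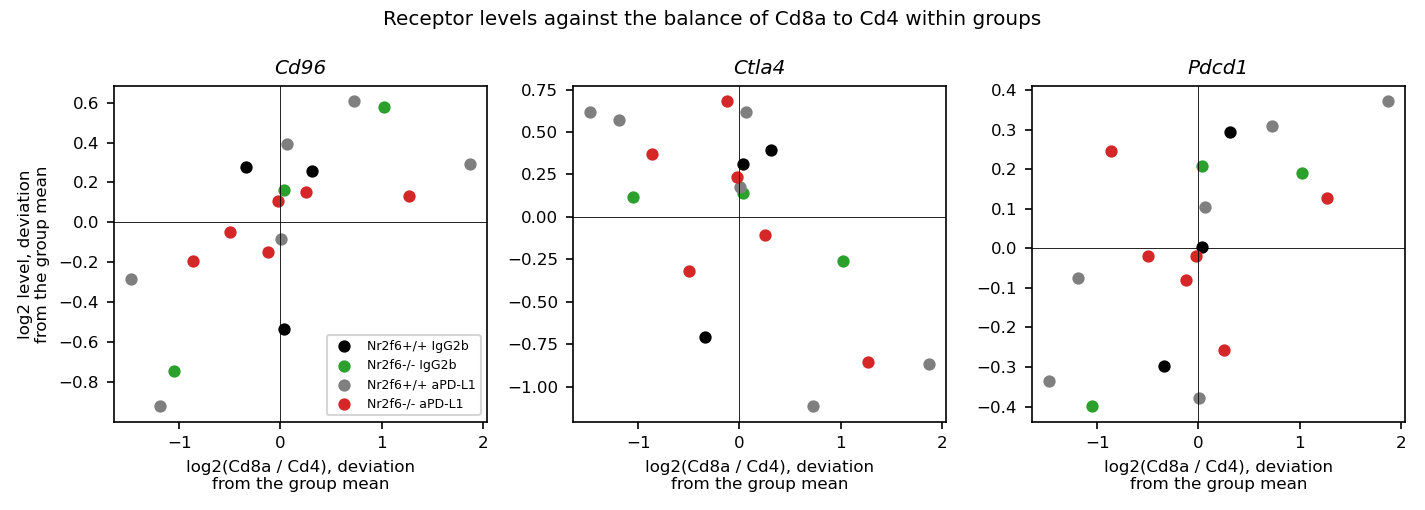
Deviation of the log2 level of Cd96, Ctla4 and Pdcd1 from its group mean (y axes) against the deviation of the log2 ratio of Cd8a to Cd4 (x axes), 1 point per sample (n = 18), colored by group. The correlation is positive for Cd96 and Pdcd1 (r = 0.70 and 0.61) and negative for Ctla4 (r = -0.64), with an adjusted p of r between 0.0668 and 0.0867.

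No comparison of the ratio between groups passed the test, with a log2 difference of 0.66 between genotypes under anti-PD-L1 (exact permutation test, two-sided, p = 0.284) and 0.93 between Nr2f6-/- anti-PD-L1 and Nr2f6+/+ IgG2b samples (exact permutation p = 0.0714). CD8 markers (Cd8a and Cd8b1, mean log2 level) were higher by 0.61 in Nr2f6-/- than in Nr2f6+/+ samples with anti-PD-L1 (exact permutation p = 0.0195, adjusted over 5 comparisons p = 0.0397). With the same adjusted p they were higher by 0.45 with anti-PD-L1 than with IgG2b in Nr2f6-/- mice and by 0.71 in Nr2f6-/- anti-PD-L1 than in Nr2f6+/+ IgG2b samples (exact permutation p = 0.0238 and 0.0119). The mean log2 level of the 6 T cell genes was higher in those latter comparisons too, by 0.26 and 0.44 (exact permutation p = 0.0119 in each, adjusted p = 0.0298). By limma 0 of the 2 CD8 markers were called in the 3 comparisons (smallest adjusted p = 0.121, 0.357 and 0.132). Of the 6 T cell genes 0 were called in the last 2 (smallest adjusted p = 0.442 and 0.213). In the first library set alone the CD8 markers differed by 0.34, 0.48 and 0.74 in the 3 comparisons and the T cell genes by 0.20 and 0.39 in the last 2, with 3 samples against 3, where an exact permutation p cannot go below 0.1. In the last 2 comparisons over all samples the groups did not overlap for Pdcd1 or for Cd160, and the part of the T cell genes in that was not tested. In Nr2f6+/+ mice the T cell genes were higher by 0.31 with anti-PD-L1 than with IgG2b (exact permutation p = 0.0833, adjusted p = 0.139). The value was 0.36 in the first library set, and the part of these genes in the differences of Pdcd1 and Havcr2 was not tested. The sum of both CD8 markers ran from 28388 to 40404.5 normalized counts in the Nr2f6-/- anti-PD-L1 samples and from 12805 to 34822 in the Nr2f6+/+ anti-PD-L1 samples. Cd160, which is expressed by CD8+ T cells, did not overlap between these groups, whereas the CD8 marker sums did, and the part of the CD8 markers in its difference was not tested. With the Cd8a to Cd4 ratio as a covariate the log2 difference of Cd160 between genotypes under anti-PD-L1 was 0.70 (limma adjusted p = 0.430). That fit takes the same slope in every group, and Cd160 had r = -0.02 with the ratio within groups. The covariate could thus hardly move the value, and the level of the CD8 markers was not used as a covariate. Regulatory T cell markers, 5 genes summed, ran from 7249.5 to 25257 normalized counts with anti-PD-L1 and from 10380.4 to 15818 with IgG2b, and no comparison of their mean passed the test.

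Markers of macrophages and monocytes fell with anti-PD-L1 in both genotypes. Summed over 14 genes they measured 17114, 21528 and 16939.9 normalized counts in Nr2f6+/+ and 11103, 9669.8 and 13107 in Nr2f6-/- IgG2b samples, against 1695 to 6738 and 904 to 2609.6 with anti-PD-L1. No sample of an anti-PD-L1 group reached the IgG2b level of its genotype. All 14 genes were below 0 in both comparisons of treatment, and their mean log2 level was lower by 3.77 in Nr2f6+/+ and by 3.83 in Nr2f6-/- mice (exact permutation test, p = 0.0119 in each, the smallest p that 84 assignments can give, adjusted p = 0.0198). Restricted to the first library set these differences were -3.78 and -3.79. By limma 2 of the 14 were called in Nr2f6+/+ mice (Lyz2 and Arg1) and 3 in Nr2f6-/- mice (Lyz2, C1qb and C3ar1), and Arg1 was at 0 in 11 of the 18 samples. In the same comparisons the log2 difference was negative for Lair1 and positive for Havcr2, which macrophages can also express. The part of the macrophage markers in the levels of Lair1, Cd200r1 and Havcr2 was not tested. With the mean of these markers as a covariate, the averaged log2 difference with anti-PD-L1 was -4.83 (SE 1.52) for Lair1 and 0.69 (SE 0.44) for Havcr2 (limma adjusted p = 0.660 and 0.791). Without it the Lair1 value was -1.68 (SE 0.62). The marker mean ran from 8.27 to 9.84 with IgG2b and from 3.43 to 7.04 with anti-PD-L1. As these ranges do not overlap, the fit cannot tell the antibody from the markers. Melanoma markers (6 genes) summed to 736 to 4124 normalized counts in the Nr2f6-/- and 2024 to 7137 in the Nr2f6+/+ anti-PD-L1 samples. Their mean log2 level differed by -1.73 between these groups (exact permutation p = 0.0216, adjusted p = 0.108). For the macrophage markers it differed by -1.22 (exact permutation p = 0.0628, adjusted p = 0.0785). The part of both lists in the difference of Cd160 was not tested. Of the B cell genes, Cd79a was at 0 in all 18 samples and Cd79b ran from 0 to 192 normalized counts. Cd79b measured 5.58 to 149.8 in Nr2f6-/- and 0 to 20.4 in Nr2f6+/+ anti-PD-L1 samples, with a log2 difference of 3.38 (SE 1.25, limma adjusted p = 0.355), and its part in the difference of Cd160 was not tested. With IgG2b Cd79b went the other way, at 0 to 0.951 in Nr2f6-/- and 6.25 to 192 in Nr2f6+/+ samples (log2 difference -4.41, limma adjusted p = 0.872). Of the 4 NK cell genes, Ncr1, Klra8 and Klrb1c were at 0 in 14, 13 and 5 samples with highest values of 83.4, 8.37 and 209, while Eomes, which T cells also express, ran from 439 to 1883. Ncr1 was at 0 in all IgG2b samples and reached 83.4 in Nr2f6-/- and 11.5 in Nr2f6+/+ anti-PD-L1 samples. Klrb1c went the other way, with at most 41.8 and 209. The mean log2 level of the 4 genes differed by 0.05 between these groups (exact permutation p = 0.909), and their part in the difference of Cd160 was not tested. The neutrophil and dendritic cell markers summed to at most 277 and 697.

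Ligands of the receptors were read from the same RNA, and so from T cells and any other cells in the sort. Of 17 ligand genes 13 were tested. The MHC class II genes H2-Aa and H2-Ab1, whose product is the LAG-3 ligand, fell with anti-PD-L1 in both genotypes. H2-Ab1 measured 2151, 3802 and 2292 normalized counts in Nr2f6+/+ and 3175, 3536 and 3754 in Nr2f6-/- IgG2b samples, against 225 to 1269 (median 598) and 398 to 940.3 (median 755) with anti-PD-L1, without overlap. The log2 difference of H2-Ab1 was -2.14 (SE 0.40, limma adjusted p = 0.00927) in Nr2f6+/+ and -2.32 (SE 0.40, adjusted p = 0.00601) in Nr2f6-/- mice. H2-Aa fell by 2.10 and 2.09 on the log2 scale (adjusted p = 0.0159 and 0.0146). Between Nr2f6-/- anti-PD-L1 and Nr2f6+/+ IgG2b samples H2-Ab1 fell by 1.93 (adjusted p = 0.0144), while the difference of H2-Aa was -1.60 (adjusted p = 0.0718). In the first library set alone H2-Ab1 differed by -2.24 (adjusted p = 0.0371) in Nr2f6+/+ and -1.96 (adjusted p = 0.118) in Nr2f6-/- mice and by -1.57 (adjusted p = 0.128) in the last comparison, and H2-Aa by -2.67 (adjusted p = 0.0121) and -1.93 (adjusted p = 0.118) in the first 2. With library set as a covariate the adjusted p of H2-Ab1 was 0.0551, 0.0170 and 0.0401 in the 3 comparisons. Macrophage markers fell in the same samples, and their part in the change of these class II genes was not tested.

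No other ligand was called in the 6 comparisons. The gene for PD-L1, Cd274, measured 218, 275 and 440.3 normalized counts in Nr2f6+/+ and 795, 656 and 367 in Nr2f6-/- IgG2b samples, and 86.3 to 479 and 95.4 to 432 with anti-PD-L1. The groups overlapped, and its log2 difference between genotypes with IgG2b was 0.95 (limma adjusted p = 0.989). The gene Fgl1, which encodes another LAG-3 ligand, was at 0 in 16 of the 18 samples and reached 0.928 normalized counts at most, below the level of 3 reads.

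Proximal signaling genes behind the receptors did not pass the test. Of 12 such genes, which include Ptpn6 (SHP-1), Ptpn11 (SHP-2), Inpp5d (SHIP-1) and Cblb, 0 were called in any of the 6 comparisons, and the smallest adjusted p was 0.565. Of 4 activating receptors listed beside the members (Cd28, Cd226, Icos and Cd4), 0 were called. CD28, the competitor of CTLA-4, measured 1829 to 3609 normalized counts in Nr2f6-/- and 1509.9 to 2608 in Nr2f6+/+ samples with anti-PD-L1, with a log2 difference of 0.66 (limma adjusted p = 0.214).

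Among 12 other inhibitory receptor genes, 11 were tested and 1 was called in the 6 comparisons. Klrc1, which encodes the NKG2A chain of an inhibitory receptor for a nonclassical MHC class I molecule, was higher in Nr2f6-/- anti-PD-L1 than in Nr2f6+/+ IgG2b samples. It measured 8015, 4923 and 10005 normalized counts in Nr2f6+/+ IgG2b samples and from 12995 to 21295 (median 15876) in Nr2f6-/- anti-PD-L1 samples, without overlap. The log2 difference was 1.14 (SE 0.25, limma adjusted p = 0.0280), and in the first library set alone it was 1.25 (adjusted p = 0.0548). In the same comparison the mean log2 level differed by 0.71 for the CD8 markers, 0.44 for the T cell genes and -4.99 for the macrophage markers. The part of these markers in the difference of Klrc1 was not tested.

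**Figure D4:**
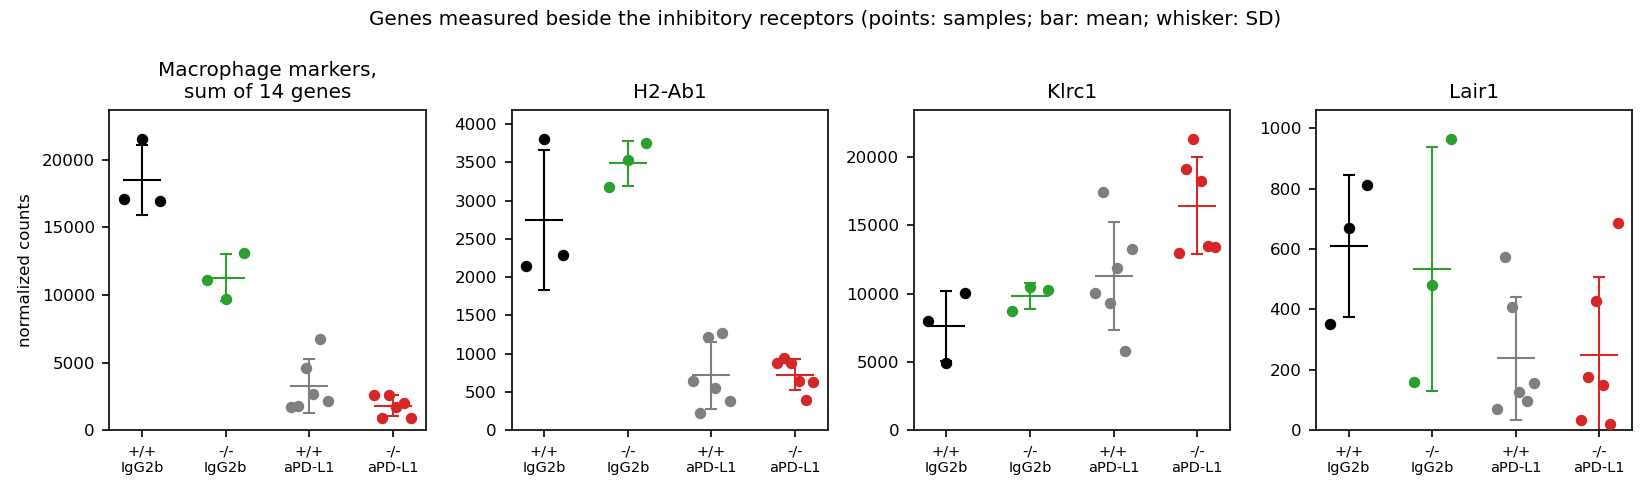
Normalized counts (y axes, linear and starting at 0) of the summed macrophage and monocyte markers, H2-Ab1, Klrc1 and Lair1 by genotype and antibody (x axes), 1 point per sample, with the group mean as a bar and the SD as a whisker that is not drawn below 0. The macrophage markers and H2-Ab1 separate IgG2b from anti-PD-L1 samples, whereas Lair1 overlaps between them.

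The receptor genes lie on 6 chromosomes (GENCODE M21 on GRCm38, the assembly of mm10 that the study mapped to). Tigit, Cd200r1, Btla and Cd96 lie within 2.47 Mb of chromosome 16 (chr16:43648867-46120251), among 35 protein-coding genes. Their positions are chr16:43648867-43664146 for Tigit and chr16:46035657-46120251 for Cd96 on the minus strand, and chr16:44765736-44794978 for Cd200r1 and chr16:45224315-45257670 for Btla on the plus strand. Pdcd1 (chr1:94038305-94052553, minus strand) and Ctla4 (chr1:60887000-60915832, plus strand) share chromosome 1, and Havcr2 (chr11:46454935-46481255, plus strand), Cd160 (chr3:96798763-96829351, minus strand), Lag3 (chr6:124904361-124911705, minus strand) and Lair1 (chr7:4003402-4063204, minus strand) lie alone. The Ctla4 locus overlaps the pseudogene Rpl18-ps1 on the same strand over 525 bp and Cd160 overlaps Pdzk1 on the other strand over 68 bp. A read there could lie in both genes, and how such reads were counted was not given. The counting strand was not given in the sources used here.

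Pdcd1, Havcr2 and Cd160 were the genes with an unadjusted p under 0.05 for anti-PD-L1 in Nr2f6-/- mice, and the 250 bases before their starts are shown, from RefSeq on GRCm38.p6, each read 5′ to 3′ on its gene's strand. RefSeq gave windows for 8 of the 10 genes (9 windows, since Cd160 has 2 starts). Capitals mark the nuclear receptor half-site AGGTCA, the class of site that receptors of the NR2F family bind as repeats, and the pattern TGANTCA. The latter is a loose form of the AP-1 site, which has C or G as its middle base, and takes any base there. Both were searched on both strands.

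Pdcd1 (chr1:94052554-94052803, minus strand): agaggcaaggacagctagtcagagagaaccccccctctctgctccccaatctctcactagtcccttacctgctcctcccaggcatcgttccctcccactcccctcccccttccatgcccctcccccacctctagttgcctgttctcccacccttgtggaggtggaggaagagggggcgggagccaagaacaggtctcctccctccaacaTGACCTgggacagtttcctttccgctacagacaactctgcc
Havcr2 (chr11:46454681-46454930, plus strand): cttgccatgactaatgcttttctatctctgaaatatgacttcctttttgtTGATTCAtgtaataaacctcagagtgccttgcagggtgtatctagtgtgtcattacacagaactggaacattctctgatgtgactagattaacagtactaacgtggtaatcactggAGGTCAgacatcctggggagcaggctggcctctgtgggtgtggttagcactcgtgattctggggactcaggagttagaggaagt
Cd160, first start (chr3:96829352-96829601, minus strand): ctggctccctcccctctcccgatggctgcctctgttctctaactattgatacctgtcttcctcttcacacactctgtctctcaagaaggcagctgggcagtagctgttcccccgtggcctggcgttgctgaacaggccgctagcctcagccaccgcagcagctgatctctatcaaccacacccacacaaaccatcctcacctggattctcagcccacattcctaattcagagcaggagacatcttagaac
Cd160, second start (chr3:96814522-96814771, minus strand): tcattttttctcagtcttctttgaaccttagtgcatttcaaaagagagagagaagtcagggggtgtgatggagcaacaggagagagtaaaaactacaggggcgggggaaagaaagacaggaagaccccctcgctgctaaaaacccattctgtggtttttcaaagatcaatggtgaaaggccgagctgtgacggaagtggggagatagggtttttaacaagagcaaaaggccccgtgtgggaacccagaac

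AGGTCA was found once before Pdcd1, on the reverse strand as TGACCT at position -41, and once before Havcr2 at position -84, counted from the start. It was in 2 of the 9 windows and in 14% of 32851 mouse promoter windows of the same length. TGANTCA was found in 1 of the 9, before Havcr2 at position -200 as TGATTCA, and in 6.75% of all windows. That match has T in the middle, so it lacks the C or G of the AP-1 site. The matches did not overlap each other. Neither Cd160 window held either run of letters, which says nothing of the factors that bind there.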

How the data were processed

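RNA was measured in 18 samples, whose 4 groups were taken from the sample labels. The authors trimmed reads with Cutadapt and Trimmomatic, dropped those under 22 nt, mapped them to mm10 with STAR and Bowtie2 and counted genes with HTSeq. The deposited signal holds reads per gene, scaled by the authors with a size factor for each sample (0.823 to 1.22). Dividing by the step of each column recovered whole reads for 100% of values (tolerance 0.01), 12473391 to 18609482 per sample.

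Because the deposited values are normalized, limma (version 3.58.1, R 4.3.3) with eBayes and its trend option was fitted to log2(normalized count + 1) in 1 model of the 4 group means, over genes with a mean of at least 10 (11992), with Benjamini-Hochberg adjustment and a threshold of 0.05. edgeR (4.0.16) and DESeq2 (1.42.0), the authors' tool, were run on the recovered reads, and edgeR called 19, 22, 36 and 41 genes where it called any in the 6 comparisons. Single values were compared by exact permutation and correlations by 100000 permutations within groups. The limma fit was tried on simulated counts for the comparisons between genotypes, and the other steps were not tested in that way. The labels do not state which samples came from which mice, so p-values cover the spread between samples. Annotation and strand setting are not given in the sources used here. Members and lists were chosen with earlier results of these data known. Genes named are the members, list genes past an adjusted p of 0.05, the markers given beside a result, and for the 4 members with a mean of at least 100 and the largest SD the 3 genes of nearest pattern. Cd274, Fgl1, Tnfrsf14, Cd28 and the signaling genes named were chosen after their values were seen. Other settings tried were pseudocounts, filters, scaling, library set, covariates, a replicate block and leaving out each sample. The summed and mean levels of the B cell marker list, which holds a gene not reported here, are left out, and Cd79b was named after its values were seen. Within-set values of the other marker lists were added after the data were seen.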

Additional observations from a re-analysis of the deposited data

Results flagged for a closer look

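Tigit in Nr2f6-/- anti-PD-L1 replicate 4 stood apart from the other 5 samples of its group, with 362 normalized counts against 72.9 to 163. Its gap to the nearest sample was 0.689 of the group's range. It was the only flag among the 20 groups of 6 samples examined, and chance alone flags about 1 in 20 such groups.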

How the results depend on the processing

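Across up to 32 other settings, the count of members called stayed at 0 in every comparison except where named here. DESeq2 on recovered reads called 1 member (Cd160) in each of 2 comparisons, anti-PD-L1 in Nr2f6-/- mice and Nr2f6-/- anti-PD-L1 against Nr2f6+/+ IgG2b. For the anti-PD-L1 effect averaged over genotypes, added after the data were seen, DESeq2 called 2 (Pdcd1, adjusted p = 0.0168, and Havcr2, adjusted p = 0.0292), against 2.84% of all genes, while limma called 0 (1.13%). Leaving out 1 sample gave 0 to 1 there: Pdcd1 without Nr2f6+/+ anti-PD-L1 replicate 1 (adjusted p = 0.0442) and Havcr2 without replicate 2 of that group (adjusted p = 0.0489). Samples with the same replicate number did not deviate together (r from -0.0292 to 0.0366), and with the replicate block 0 members were called in every comparison. Of 70 values of members, 25 changed sign under some setting, and none of the 99 values with a changed sign had an adjusted p under 0.05. Depth limits the scarce members, with 6 to 306 reads per sample for Lag3, 22 to 362 for Tigit and as few as 17 for Btla and 22 for Lair1. Over all genes, limma called 21 and 0 between genotypes with anti-PD-L1 and with IgG2b, 29 and 39 for anti-PD-L1 in Nr2f6+/+ and Nr2f6-/- mice, 74 for Nr2f6-/- anti-PD-L1 against Nr2f6+/+ IgG2b and 0 for the difference of treatment effects, where DESeq2 called 184, 88, 94, 230, 177 and 76. The cause of these differences was not tested.

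Between genotypes with anti-PD-L1, the sign changed for Havcr2 (-0.062 second set), Lair1 (0.0524 second set, 0.0641 edgeR, 0.0661 DESeq2), Pdcd1 (-0.12 first set, -0.0868 macrophage covariate, -0.0842 ratio covariate). Between genotypes with IgG2b, the sign changed for Btla (-0.12 edgeR, -0.13 DESeq2), Cd160 (0.00987 edgeR, 0.00722 DESeq2, 0.000248 macrophage covariate), Ctla4 (-0.000334 macrophage covariate), Pdcd1 (-0.0403 macrophage covariate). For anti-PD-L1 in Nr2f6+/+ mice, the sign changed for Btla (0.34 set covariate, 0.48 first set, 0.34 replicate block, 0.0115 edgeR, 0.00196 DESeq2, 1.89 macrophage covariate, 0.0277 ratio covariate), Cd200r1 (-0.18 edgeR, -0.19 DESeq2), Cd96 (-0.0586 macrophage covariate), Lag3 (0.00112 pseudocount 10, 0.47 set covariate, 0.12 first set, 0.47 replicate block, 0.63 edgeR, 0.62 DESeq2, 2.01 macrophage covariate). For Nr2f6-/- anti-PD-L1 against Nr2f6+/+ IgG2b, the sign changed for Ctla4 (0.0835 first set, 0.21 ratio covariate). For the difference of treatment effects, the sign changed for Havcr2 (-0.00181 edgeR, -0.0179 ratio covariate), Lair1 (-0.43 first set, -0.0151 macrophage covariate), Pdcd1 (0.0161 same total). Leaving out 1 sample changed the sign of log2 differences, with these ranges over the 18 samples left out. Between genotypes with anti-PD-L1, the range spanned 0 for Lair1 (-0.89 to 0.12), Pdcd1 (-0.0432 to 0.11). Between genotypes with IgG2b, the range spanned 0 for Btla (-0.63 to 0.92), Cd160 (-0.34 to 0.31), Cd200r1 (-0.26 to 1.02), Cd96 (-0.16 to 0.50), Ctla4 (-0.21 to 0.35), Havcr2 (-0.0295 to 0.23), Lag3 (-0.15 to 1.08), Lair1 (-1.05 to 0.24), Pdcd1 (-0.0762 to 0.27), Tigit (-0.65 to 0.73). For anti-PD-L1 in Nr2f6+/+ mice, the range spanned 0 for Btla (-0.81 to 0.74), Cd200r1 (-0.50 to 0.78), Cd96 (-0.000818 to 0.45), Lag3 (-0.64 to 0.33). For Nr2f6-/- anti-PD-L1 against Nr2f6+/+ IgG2b, the range spanned 0 for Btla (-0.0771 to 1.48), Ctla4 (-0.54 to 0.0123). For the difference of treatment effects, the range spanned 0 for Btla (-0.19 to 1.36), Cd96 (-0.16 to 0.50), Havcr2 (-0.10 to 0.16), Lair1 (-0.66 to 0.63), Pdcd1 (-0.24 to 0.11). For anti-PD-L1 averaged over genotypes, the range spanned 0 for Btla (-0.13 to 0.65).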

Other observations

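For the 4 members with the largest spread among those averaging 100 normalized counts or more, the genes with the most similar pattern over the 18 samples were sought among 8540 genes. Likeness was the root mean square difference of log2 levels after each gene was centred on its own mean, so that lower values are closer. Ctla4 was nearest to Glyr1 (0.375), Jund (0.414) and Nsmce1 (0.424), with a median of 0.904 over all genes compared. Cd200r1 was nearest to Oaz2 (0.612), Taz (0.668) and Fxr1 (0.670), with a median of 1.13. Btla was nearest to Rhbdd1 (0.826), Nod1 (0.853) and Med23 (0.884), with a median of 1.43. Lair1 was nearest to Sidt1 (1.11), Clec10a (1.12), a lectin of macrophages and dendritic cells, and Adprm (1.17), with a median of 1.68. None of the nearest genes was another member. Genes with little spread of their own score well on this measure, and no test was made.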
